A study of Mus musculus with 4 samples.

Results

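Slc1a2, Slc1a3 and Glul encode the proteins by which astrocytes clear glutamate from synapses and turn it into glutamine. All rows with one of these 3 gene names were taken from tables of called N6-methyladenosine (m6A) sites in 4 libraries of sorted mouse cortical glia. They gave 42 listings at 34 bases, in 3 of 5526 genes and among 10598 bases listed in named genes. Of the 42 listings, the library labelled astrocyte 1 held 22 and microglia 2 held 18, while astrocyte 2 held 2 and microglia 1 held 0. All 4 libraries came from tamoxifen-treated mice of the genotype APOBEC1-YTH, a cytidine deaminase joined to an m6A-binding domain. The mice were 10 weeks old when tamoxifen was started and received 20 mg/kg every 24 hours on 5 days, with tissue taken 7 days after the last dose. Cells were sorted from digested cortex, with anti-ACSA2 for astrocytes and anti-CD11b for microglia, which are the brain's own macrophages. There were 2 libraries of each, no untreated mice and no other genotype. The sources used here do not give the promoter that drives the transgene, nor whether the 2 libraries of a type came from separate animals, so any p-value covers only the spread between these libraries.

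Glutamate released by neurons is carried into astrocytes with sodium by Slc1a2 (GLT-1), the main glutamate transporter of the adult forebrain, and by Slc1a3 (GLAST). Inside the astrocyte, glutamine synthetase, the product of Glul, joins it with ammonia to make glutamine, which is passed back to neurons. The m6A mark is placed on nascent messenger RNA by a methyltransferase complex, mostly in the consensus known as DRACH, and is often found in long internal exons and in 3′ untranslated regions. In GLORI, unmethylated adenosine is deaminated chemically and sequenced as G, so an A that survives in the reads counts as methylated. The level of a site is the share of its reads still carrying A.

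The marker lists did not follow all the labels, so each result is given by library. Of 30 astrocyte markers, chosen without the 3 genes, 26 had a site in astrocyte 1 and 21 in microglia 2, against 1 each in astrocyte 2 and microglia 1 (Cst3 in both). Their levels summed to 2402 and 1307 points in astrocyte 1 and microglia 2, against 13.3 and 19.6 points in astrocyte 2 and microglia 1. Gfap and Sox9, of the same list, had no site in any library. Of 30 microglia markers, 24 had a site in astrocyte 2 and 19 in microglia 1, against 2 in astrocyte 1 and 1 in microglia 2, with summed levels of 71.3 and 2005 points under the astrocyte label and 2187 and 60 points under the microglia label. Trem2 and Tyrobp had none in any library. The markers of both replicate 2 libraries thus ran against their labels, as they would if these 2 labels were exchanged, which was not tested. Every mean, p and direction by label below holds for the labels as given and cannot be read as a comparison of the cell types. Of 12 oligodendrocyte markers, astrocyte 1 listed 9, microglia 2 listed 10 and the other libraries listed 0. The summed levels were 618 and 847 points. Of 5 oligodendrocyte precursor markers, astrocyte 1 listed 2 and microglia 2 listed 1. Of 8 endothelial and mural markers, astrocyte 1 listed 2 and microglia 2 listed 3. Of 15 neuron markers, astrocyte 1 listed 3 and microglia 1 listed 1. The part of these cell types in the results below was not tested. The libraries listed 6343 to 12687 sites, of which 1066 to 4790 lay in named genes. Read depth is unknown. A gene with no listed site may have been unmethylated, below a calling limit or too thinly read. In sorted bulk libraries, fewer cells of a type and less RNA per cell cannot be told apart.

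Slc1a2 had the most listed sites of any gene in astrocyte 1, with 14, and in microglia 2, with 13, and no site in astrocyte 2 or microglia 1. For Slc1a3, astrocyte 1 listed 5, microglia 2 listed 3 and the others none. For Glul, astrocyte 1 listed 3 sites, astrocyte 2 and microglia 2 listed 2 each and microglia 1 listed none. Both transporters were thus listed in the same 2 libraries, which carry different labels, and Glul was listed in another one as well. Of all 5526 genes, astrocyte 1 listed 57.0%, astrocyte 2 listed 31.1%, microglia 1 listed 17.0% and microglia 2 listed 47.2%, and 15.7% were listed in astrocyte 1 and microglia 2 and in neither other library, as both transporters were.

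**Figure D1:**
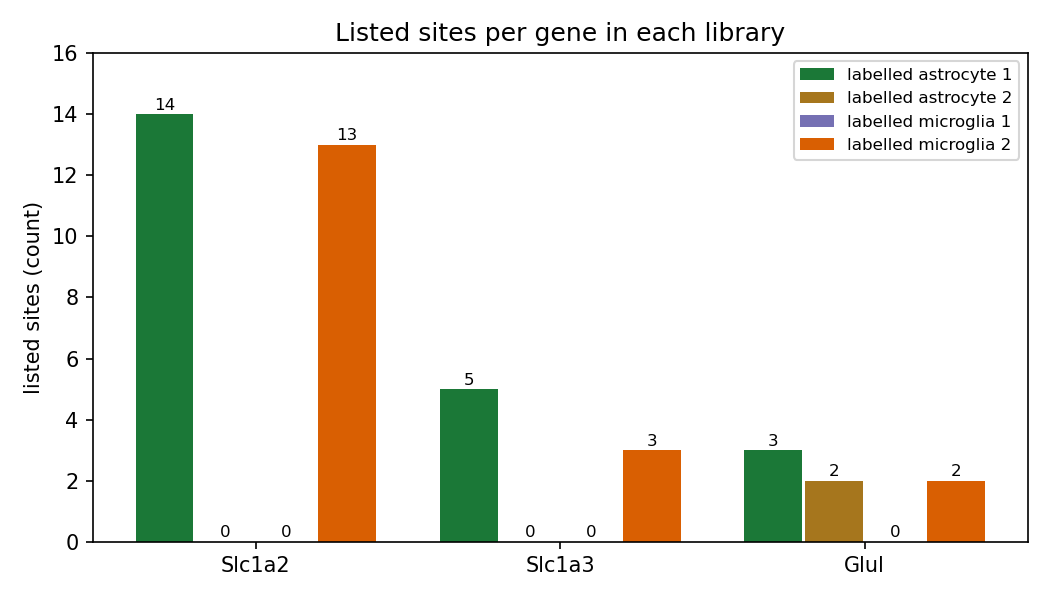
Number of listed sites (y axis, count) in Slc1a2, Slc1a3 and Glul, with 1 bar for each of the 4 libraries by its label and the count above it. Slc1a2 stands at 14 in astrocyte 1 and 13 in microglia 2 and at 0 in the others, and Glul is the only one of the 3 with sites in astrocyte 2.

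Compared by label, the mean number of Slc1a2 sites was 7.0 ± 9.9 in astrocyte libraries and 6.5 ± 9.2 in microglia libraries (SD, n = 2 each, two-sided exact permutation p = 1). For Slc1a3 the means were 2.5 ± 3.5 and 1.5 ± 2.1 (SD, n = 2 each, exact permutation p = 1). For Glul they were 2.5 ± 0.71 and 1.0 ± 1.4 (SD, n = 2 each, exact permutation p = 0.667). In each gene the libraries of the 2 labels overlapped or tied, while counts did not overlap in 5.43% of all genes. The smallest p this design allows is 0.33, so none of these comparisons could pass a threshold of 0.05. The direction for the transporters hung on the replicate. In the replicate 1 libraries alone, astrocyte minus microglia was 14 sites for Slc1a2 and 5 for Slc1a3, and in the replicate 2 libraries alone it was -13 and -3. For Glul it was 3 and 0. Without astrocyte 1 the difference for Slc1a2 was -6.5, and without microglia 1 it was -6.

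Every listed base of the 3 genes carried one of 2 short contexts, GAC or AAC, in which the middle A is the tested base. So did every other named-gene site of the 4 libraries, so this does not set the 3 genes apart. All were written in capitals in the tables, as were 94.9% of named-gene sites in astrocyte 1 and 95.7% in microglia 2. GAC stood at 21 of the 34 bases. In astrocyte 1, 50% of the listings were GAC, against 67.6% of all its sites in named genes. In microglia 2 the figures were 66.7% and 69.4%. Positions below are 1-based in mm39, and sites of 1 gene share its transcripts and are not independent. No mm39 annotation was used here, so exons, introns and untranslated regions were not assigned.

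Slc1a2 lies on the plus strand of chromosome 2, and its 21 listed bases ran from position 102488886 to 102620870, over 131984 bases. The first of them, a GAC at 102488886, was listed at 45.5% in astrocyte 1. The next, 97527 bases downstream, was a GAC at 102586413 with 17.7% in astrocyte 1 and 14.1% in microglia 2. The other 19 bases lay in the last 12970 bases of the listed span. No gene had more bases within any window of 13000 bases, a window set after the positions were seen. Ddx17, an RNA helicase, and Son, a splicing factor, also reached 19. The share of Slc1a2 bases in the last 10% of the listed span was 90.5%, the highest of 49 genes with at least 10 bases, whose median was 25.0%. It rested on the single base at 102488886: without it the span was 34457 bases and the share 35.0%.

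The dense stretch opened with bases each listed in 1 library. Position 102607900 was a GAC at 20.9% in astrocyte 1, and 102608199 was a GAC at 16.5% in microglia 2. Position 102608300 was an AAC at 17.1% in astrocyte 1. A close pair of GAC bases, 14 bases apart, followed at 102608355 and 102608369, with 50% and 33.3% in microglia 2 and no listing in astrocyte 1. Microglia 2 alone also listed the GAC bases at 102611123 with 36.4% and at 102611369 with 26.7%. These were 4 of the 7 bases that microglia 2 listed and astrocyte 1 did not.

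Further downstream, bases listed in both libraries were mixed with single ones. The AAC at 102612407 stood at 13.1% in astrocyte 1 and 16.4% in microglia 2. The AAC at 102615449 stood at 15.4% and 15.9%, the closest pair of unequal levels in the gene. Between them astrocyte 1 alone listed an AAC at 102613055 with 33.3%. Just after them a GAC at 102615795 had 14.0% in astrocyte 1, and an AAC at 102615892 had 18.1% in microglia 2. These bases lay 97 apart and each was listed in 1 library.

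The last 2908 bases of the span held 7 bases. The AAC at 102617962 stood at 32.6% in astrocyte 1 and 11.8% in microglia 2. An AAC at 102618048 had 12.9% in astrocyte 1 and a GAC at 102618865 had 12.1% in microglia 2. The AAC at 102619754 stood at 24.4% and 27.7%, and the GAC at 102620681 at 50% in both libraries. The final pair of GAC bases, at 102620852 and 102620870, lay 18 bases apart and was listed in astrocyte 1 alone, at 21.6% and 34.6%. Each of the 2 libraries thus had a close GAC pair that the other did not list, at opposite ends of the dense stretch.

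Slc1a3 lies on the minus strand of chromosome 15, so its first base in the direction of transcription has the highest position. That base, an AAC at 8672458, was listed at 10.1% in astrocyte 1, the lowest level of all 42 listings. The other 7 bases began 6636 bases further on and lay within 1478 bases of each other. Astrocyte 1 listed a GAC at 8665822 with 17.2%, a GAC at 8664903 with 21.4%, an AAC at 8664446 with 13.6% and an AAC at 8664344 with 27.8%. Microglia 2 listed an AAC at 8665494 with 12.2%, a GAC at 8664694 with 42.9% and a GAC at 8664572 with 16.7%. The bases of the 2 libraries were interleaved along the stretch, and none of the 8 was listed in more than 1 library.

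Glul lies on the plus strand of chromosome 1, with 5 listed bases over 3266 bases. The GAC at 153782098 was listed in astrocyte 2 alone, at 48.4%. The AAC at 153782144, 46 bases on, was listed at 10.8% in astrocyte 1 and 30.0% in astrocyte 2. The GAC at 153782868 stood at 19.4% in astrocyte 1 and 14.7% in microglia 2. A GAC at 153784234 had 30.4% in astrocyte 1, and the last base, a GAC at 153785364, had 15.9% in microglia 2. The 2 bases of astrocyte 2 were the 5′-most ones of the gene. In the cortex Glul is made by astrocytes above all, but other cells make it too.

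**Figure D2:**
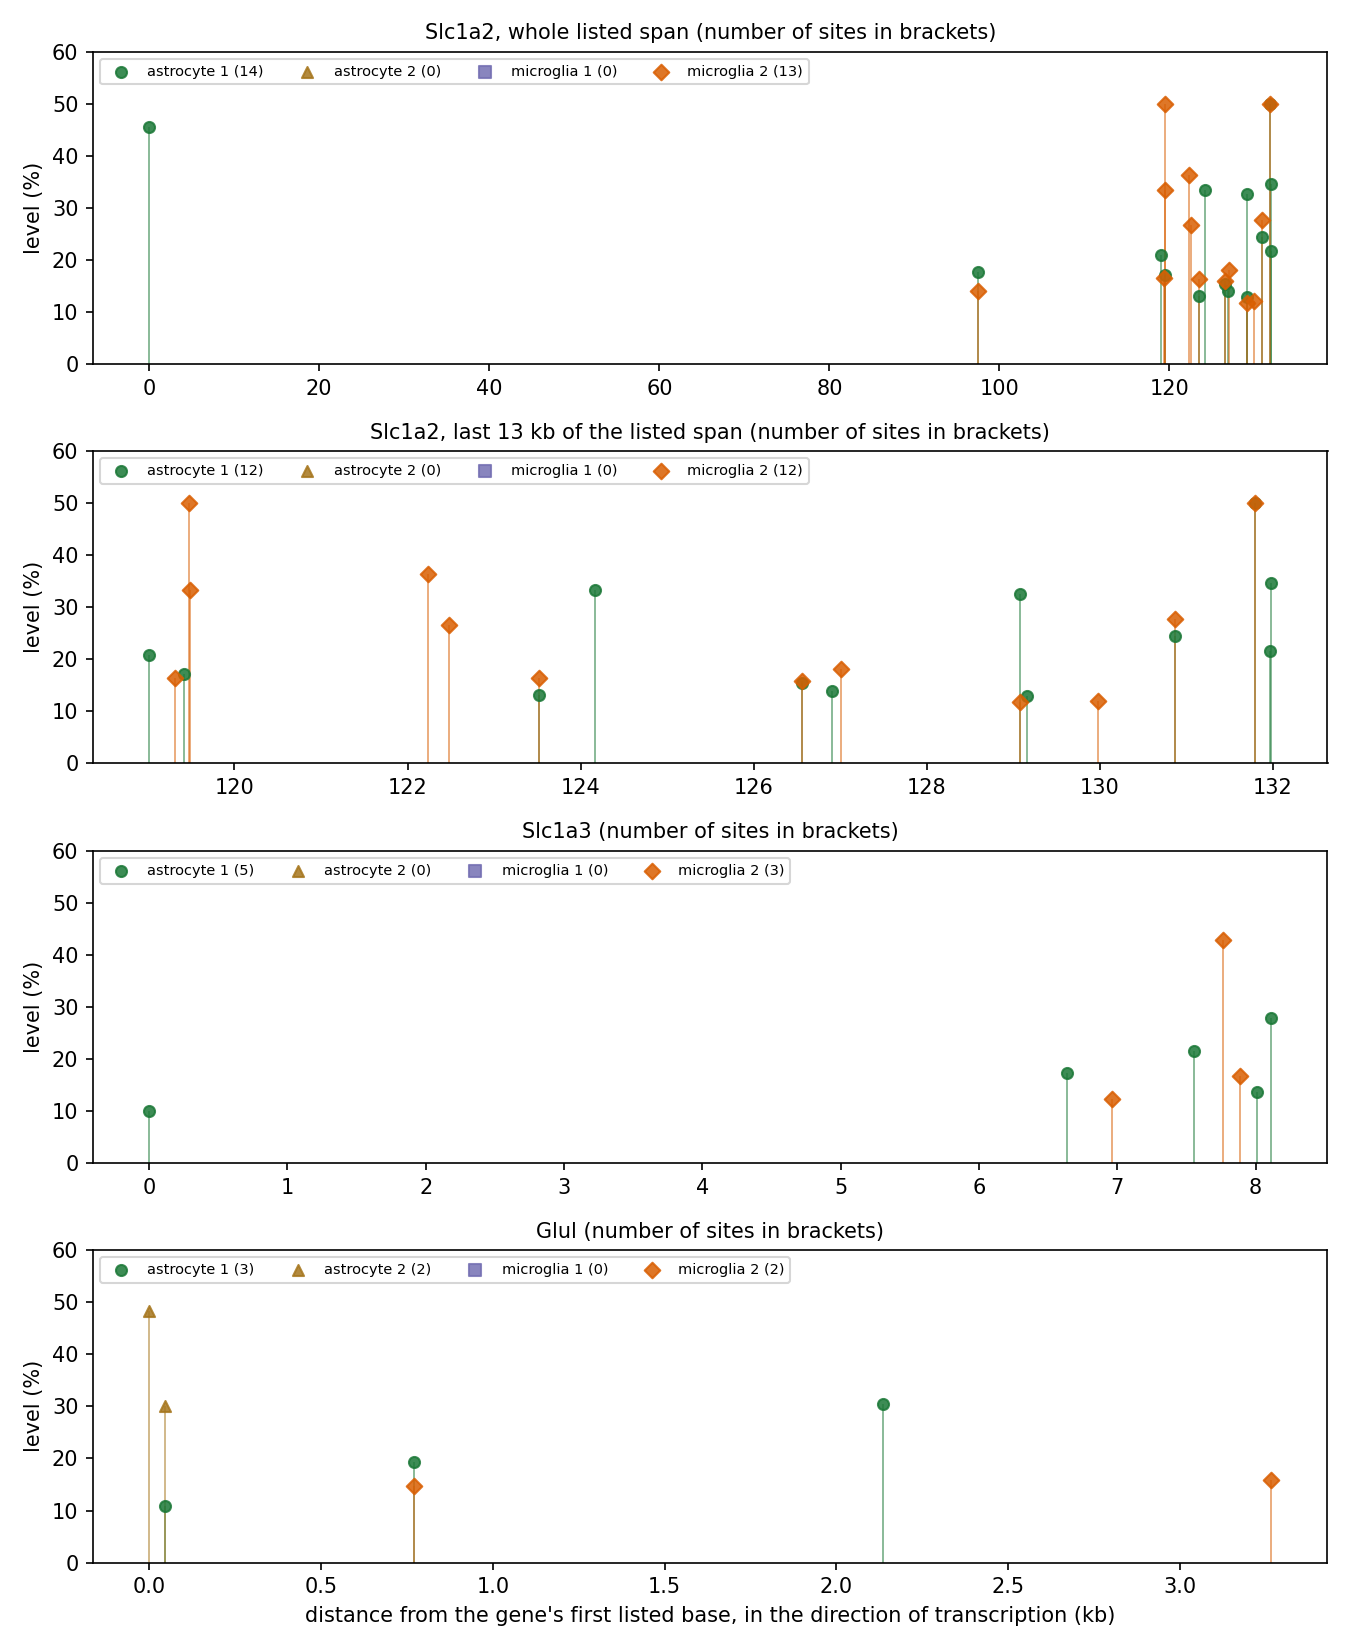
Level of each listed site (y axis, percent) against the distance from the gene's first listed base in the direction of transcription (x axis, kb), with 1 panel for the whole of Slc1a2, 1 for its last 13 kb, and 1 each for Slc1a3 and Glul. Circles are astrocyte 1, triangles astrocyte 2, squares microglia 1 (no sites) and diamonds microglia 2. The Slc1a2 sites gather at the 3′ end of the span, with 12 in each of the 2 libraries in the last 13 kb, and no level exceeds 50%.

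Of the 34 bases, 8 were listed in 2 libraries, none in 3 or 4, and 26 in 1. That is 23.5%, against 9.72% of all named-gene bases. The 8 comprised 6 bases of Slc1a2, 0 of Slc1a3 and 2 of Glul, 1 of which joined the 2 astrocyte libraries. Of the 33 bases listed in astrocyte 1 or microglia 2, both listed 7, or 21.2%, against 7.77% over all named genes and 5.18% where each library was limited to levels up to 50%. For Slc1a2 the shared part was 28.6% of 21 bases, 6 of the 14 in astrocyte 1 and 6 of the 13 in microglia 2. Over the 49 genes with at least 10 bases the median share was 6.67%, leaving out Ssh2, which neither library listed. Of these genes 1, the nuclear RNA Malat1, stood higher, at 50%. Only Slc1a2 had at least 10 bases in each of the 2 libraries. Some of the others had few or none in 1 of them, which holds their share down. For Slc1a3 the shared part was 0 of 8, and for Glul 1 of 4. The astrocyte libraries shared 1 of 4 Glul bases, against 3.45% of named-gene bases listed in either.

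**Figure D3:**
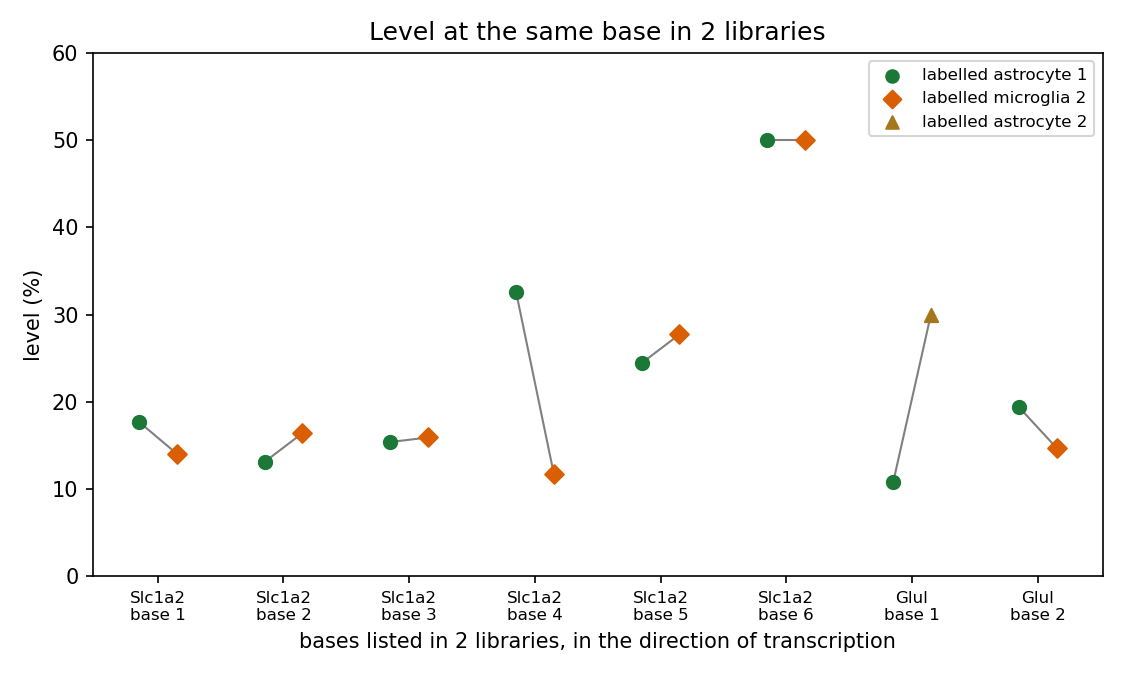
Level (y axis, percent) at each base listed in 2 libraries, with a line joining the libraries and bases in the direction of transcription along each gene (x axis). Of the Slc1a2 pairs 5 are nearly level, while base 4 drops from 32.6% to 11.8%, and the first Glul base rises from 10.8% in astrocyte 1 to 30.0% in astrocyte 2.

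At the 6 shared Slc1a2 bases, the mean level was 25.5% in astrocyte 1 and 22.6% in microglia 2, a difference of 2.9 points ± 9.16 (SD over 6 bases). Astrocyte 1 was higher at 2 bases, microglia 2 at 3, and 1 was equal. The difference came from 102617962, where astrocyte 1 stood 20.8 points higher, while the other 5 bases differed by at most 3.65 points. Without that base the mean difference was -0.69 points ± 2.87 (SD over 5 bases). Over all 368 named-gene bases below 100% in both libraries, the SD of the difference was 20.1 points, and over the 167 with levels up to 50% in both it was 11.3 points, with 13 of those bases apart by more than 20 points. The gap at 102617962 was thus about as large as 1 SD of the wider set. It exceeded the SD of 11.3 points over bases with levels up to 50%, the set to which this base belongs. With 1 value a library, it has no replicate check.

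The 2 shared Glul bases behaved differently from each other. At 153782868 astrocyte 1 stood 4.68 points above microglia 2. At 153782144 astrocyte 1 stood at 10.8% and astrocyte 2 at 30.0%, a difference of -19.2 points between libraries of the same label, against an SD of 18.8 points over the 83 bases below 100% in both and 9.93 points over the 35 with levels up to 50% in both. No base of the 3 genes was listed in all 4 libraries, against 0.783% of named-gene bases, so no level could be tested between the types.

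All 42 listings had levels of 50% or less, from 10.1% to 50%, with a median of 18.7%. Among all named-gene sites, 35.7% in astrocyte 1, 28.9% in astrocyte 2 and 44.5% in microglia 2 had levels up to 50%. The median Slc1a2 level was 21.3% over 14 sites in astrocyte 1 and 18.1% over 13 in microglia 2, against 66.7% and 58.9% over all named-gene sites of these libraries. Slc1a3 had medians of 17.2% and 16.7%, and Glul had 19.4% and 15.3%, with 39.2% over its 2 sites in astrocyte 2. The ranges of the 3 genes overlapped, at 12.9% to 50% for Slc1a2, 10.1% to 27.8% for Slc1a3 and 10.8% to 30.4% for Glul in astrocyte 1.

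**Figure D4:**
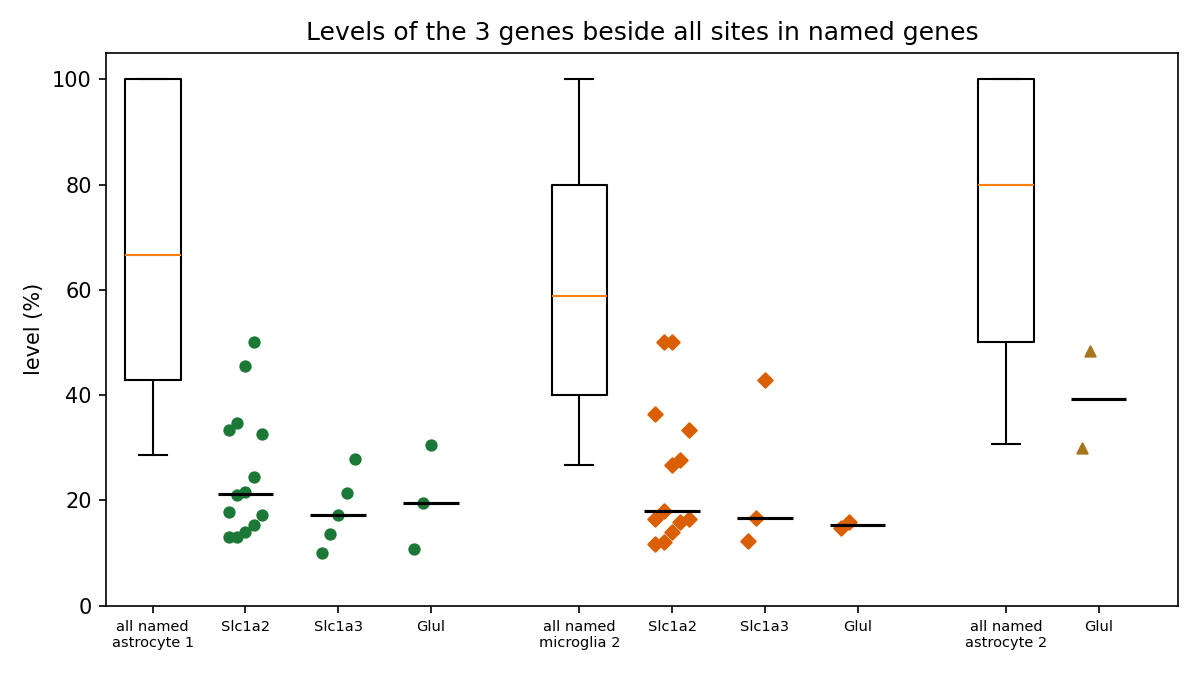
Levels (y axis, percent) of every listed site of Slc1a2, Slc1a3 and Glul in the 3 libraries that list them, with a black line at each median, beside boxes for all named-gene sites of that library (box, quartiles; coloured line, median; whiskers, 10th to 90th percentile). All points lie at or below 50%, while the boxes have medians of 66.7% (astrocyte 1), 58.9% (microglia 2) and 80.0% (astrocyte 2).

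Low levels were shared with some other densely listed genes. Among the 49 genes with at least 10 bases the gene medians ran from 13.1% to 100%, with a middle value of 44.2%, and 5 genes stood below the 20.9% of Slc1a2, among them Scd2, a fatty acid desaturase, at 13.1%, LOC115489466 at 17.3%, Malat1 at 17.8% and Appl2, an endosomal adaptor, at 20.3%. The highest level in Slc1a2 was 50%, and 3 of the 49 genes had a lower highest level. Within the 3 genes, GAC listings had a median of 21.5% and AAC listings 16.2%. In microglia 2 the GAC and AAC medians of Slc1a2 were 30.0% over 8 sites and 16.4% over 5, and in astrocyte 1 they were 21.6% and 17.1% over 7 each. Over all named-gene sites the contexts stood alike, at 66.7% for each in astrocyte 1 and 58.6% and 60% in microglia 2. The levels of the 2 contexts overlapped in each gene listed with both in astrocyte 1 except Glul, whose lone AAC there was its lowest site.

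Shared bases of Slc1a2 did not stand above single ones. In astrocyte 1 the median was 21.1% over the 6 shared bases and 21.3% over the 8 others, and in microglia 2 it was 16.2% over the 6 and 26.7% over the 7 others. Bases listed in 1 library alone included levels as high as 45.5% in astrocyte 1 and 50% in microglia 2.

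Within the listed span of Slc1a2, on the same strand, the tables gave 16 listings at 15 bases to another name, LOC115489466, which RefSeq lists as a long non-coding RNA inside Slc1a2 in the build GRCm38.p6. Its sites began 1355 bases after the first Slc1a2 base and ended at 21629 bases, far upstream of the dense stretch. They too were listed in astrocyte 1 (7 sites, median 20.8%) and microglia 2 (9 sites, median 13.9%), with levels from 10.0% to 37.5%. At 102502947, the base listed in both, the level was 10.0% and 10.5%. A further 5 bases of the span, 4 in astrocyte 1 and 1 in microglia 2, had no gene name and levels from 34.3% to 70.0%. Since these transcripts overlap on 1 strand, reads of one cannot be told from those of the other, and the first Slc1a2 base and these sites are uncertain in their gene.

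By number of sites over the 4 libraries, with likeness measured as the sum of absolute differences in counts, the gene nearest to Slc1a2 was Pcdh9, a protocadherin, with 13 sites in astrocyte 1, 9 in microglia 2 and none in the others (sum 5). Appl2 had 13 and 7 (sum 7). Fat1, an atypical cadherin, and LOC115489466 had 7 and 9 each (sum 11). They come first by symbol among 4 genes tied at that sum. Pcdh9, Appl2, Fat1 and LOC115489466 had no site in astrocyte 2 or microglia 1. Slc1a3 had the same 4 counts as 8 other genes. Glul had the same counts as Ddx6, an RNA helicase, Irs2, an insulin receptor substrate, Tet2, a DNA demethylase, and Tjp1, a tight junction protein. Small counts tie often, so likeness says little for these genes.

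Other genes of glutamate and glutamine handling were taken from a list of 44: transporters, enzymes, receptors and partners. Of these, 24 had a site in some library, with 21 listed by astrocyte 1, 18 by microglia 2, 2 by microglia 1 and 0 by astrocyte 2, and 16 were listed in astrocyte 1 and microglia 2 and in neither other library. No site was listed for the other 20. Of the 44 symbols, 43 were found in RefSeq's GRCm38.p6 table, and a gene listed under another symbol would have been missed. Among all 5526 genes with a site in some library, the base to set beside the 24, astrocyte 1 listed 57.0%, microglia 2 listed 47.2%, microglia 1 listed 17.0% and astrocyte 2 listed 31.1%, and 15.7% had the pattern of the 16. The median level over the list was 41.0% over 54 sites in astrocyte 1 and 36.4% over 39 in microglia 2, below the 66.7% and 58.9% of all named genes and above the medians of the 3 genes.

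Among relatives of the glutamate transporters, Slc1a4, a neutral amino acid exchanger, was listed with 3 sites by astrocyte 1 and 2 by microglia 2, and its GAC at 20282594, on the minus strand of chromosome 11, stood at 77.8% and 46.2%. Slc1a5, another exchanger that carries glutamine, had 1 site, at 100% in astrocyte 1. No listing of these family members was below 46.2%, while most listings of Slc1a2 and Slc1a3 were. Slc1a1, Slc1a6 and Slc1a7 had no site.

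Glutamine leaves astrocytes and enters neurons through system N and system A carriers. Slc38a2, a system A carrier, had 4 sites in astrocyte 1 and 2 in microglia 2 with levels from 50% to 100%. Slc38a1, of the same system, had 1 and 3 sites, and Slc38a3, the system N carrier of astrocytes, had 1 and 2 with levels of 18.6% to 75%. Of the enzymes, Glud1, glutamate dehydrogenase, had 2 and 1 sites at 31.3% to 50%.

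Slc6a11 (GAT-3), the GABA transporter of astrocytes, was listed with 2 sites by astrocyte 1 and 4 by microglia 2. Its levels ran from 12% to 71.8%, with medians of 16.5% in astrocyte 1 and 24.0% in microglia 2. On the plus strand of chromosome 6, its GAC at 114225391 stood at 19% and 12%. There the 2 libraries differed by less than the SD of 11.3 points given above.

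The list also held channels, pumps and receptors. Kcnj10, the potassium channel that works beside glutamate uptake, was listed with 7 sites by astrocyte 1 and 4 by microglia 2, and its shared AAC at 172199003 of chromosome 1 (plus strand) stood at 29.6% and 30.8%. Grin2c, a subunit of NMDA receptors, had 9 and 1 sites, with a shared GAC at 115140333 of chromosome 11 (minus strand) at 30.8% and 24.1%. Gria2, a subunit of AMPA receptors, had 7 and 1. Atp1b2, a sodium pump subunit of astrocytes, had 1 and 2 sites, with a median of 13.2% over its listings. Grm3, the main metabotropic glutamate receptor of astrocytes, had 2 and 1.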

How the data were processed

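The authors deposited 1 table of called m6A sites for each library, holding 7 unnamed columns: coordinates, gene name, level, strand and 3-mer. Levels were deposited as a fraction, without read counts, and are printed as a percent. Per the series' design text, GLORI-tools made the calls. The submitters' processing notes name STAR and mm39. Calling thresholds: not given in the sources used here. Levels started at 10% in 3 libraries and 10.05% in microglia 2. RNA was total RNA prepared with a stranded kit, per the labels' protocols.

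Rows were matched between libraries by chromosome, end position and strand (Python 3.11.15, pandas 2.3.3, numpy 2.4.6), without a coverage minimum since coverage is unknown. Site counts were compared by a two-sided exact permutation test. The planned limma fit needed a base of the 3 genes in all 4 libraries and was not run. The spread of 1 library is the SD of the difference at named-gene bases below 100% in both libraries of a label, divided by the square root of 2: 13.3 points for the astrocyte label and 11 for the microglia label. Each of these pairs holds 1 library with mostly astrocyte markers and 1 with mostly microglia markers, so this is no spread within a cell type. Functions were tested on simulated data. Named were the 3 genes, genes of the glutamate list with the most sites and selected relatives by role, the latter chosen after values were seen, and the genes with the nearest counts, from the 5 nearest. Some named genes are not reported here. The genes and lists were chosen with earlier results of these data known. Of 5526 gene names, 5452 matched a symbol in RefSeq's GRCm38.p6 table, used for classes and neighbours only.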

Additional observations from a re-analysis of the deposited data

How the results depend on the processing

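The direction of the label comparison in site counts was not stable for the transporters. Leaving out each library in turn gave astrocyte minus microglia differences from -6.5 to 7.5 for Slc1a2, -1.5 to 3.5 for Slc1a3 and 0.5 to 2.5 for Glul. With GAC sites alone the difference was -0.5 for Slc1a2 and 0 for Slc1a3, and per 1000 named-gene sites it was -0.257 for Slc1a2. In the replicate 2 libraries alone, added after the data were seen, it was -13 for Slc1a2, -3 for Slc1a3 and 0 for Glul. With a replicate block, the differences remained 0.5, 1 and 1.5 sites and each exact permutation p was 1, where 2 pairs cannot give a p below 0.5. Same-numbered libraries deviated in opposite directions over 5526 genes (r = -0.369, across genes, which are not replicates). With crossed numbers 0 of 3 genes passed a threshold of 0.05, as without a block. Neither setting could pass it, since the smallest exact permutation p they allow are 0.5 and 0.33. Nothing in the labels says that a number marks a shared animal.

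Bases listed in 2 libraries numbered 2 for Slc1a2 and 0 for Glul at levels of at least 20%, and without single libraries 0 to 6 for Slc1a2 and 0 to 2 for Glul. Matching within 5 bases changed no count. In microglia 2 the GAC-only median was 30.0% for Slc1a2 and 29.8% for Slc1a3. The mean difference at shared Slc1a2 bases was -0.69 points without its most different base. The causes were not tested. Of 79 alternative values, 59 kept their direction, stayed within the spread used or, for counts of shared bases, stayed equal. Some of the 59 could not have changed, so their number is no measure of stability. A replicate block leaves the count difference as it is, and a limit of levels below 100% removed no listing. Leaving out microglia 1, which listed no site of the 3 genes, cannot change their shared bases, and Slc1a3 had no shared base to lose. Sizes among the 59 did change. In the replicate 1 libraries alone the count difference was 14 for Slc1a2, 5 for Slc1a3 and 3 for Glul. The mean difference at shared Slc1a2 bases was 5.85 points for bases at 20% or more in 1 library. Unknown depth limits every level and every absence.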

Other observations

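Sites without a gene name or under another name also lay within 50000 bases of the listed spans of Slc1a3 and Glul. On the strand of Slc1a3, upstream of its listed bases, a GAC at 8696224 on chromosome 15 had 38.5% in astrocyte 1, a GAC at 8697256 at 100% in astrocyte 2 and an AAC at 8705750 at 71.4% in microglia 2. The second of these was the one listing of astrocyte 2 in or within 50000 bases of the spans of the transporter genes. On the opposite strand astrocyte 1 listed an AAC at 8659790 with 18.8%. Further upstream, LOC118568186 had an AAC at 8716385 with 40% in astrocyte 1 and, in microglia 2, a GAC at 8717478 and an AAC at 8717608 with 60% each. On the strand of Glul, astrocyte 1 listed an AAC at 153776964 of chromosome 1 with 67.7%, before the gene's listed bases, and a GAC at 153786813 with 66.7%, after them. On the strand of the gene, each of these sites in astrocyte 1 and microglia 2 stood above the highest level that the same library listed in the gene itself. That level was 27.8% and 42.9% in Slc1a3, over 5 and 3 sites, and 30.4% for Glul in astrocyte 1, over 3 sites. Slc1a2 differed. In astrocyte 1 the unnamed sites inside its span ran from 40% to 70%, on both sides of its highest level of 50%. The 1 such site in microglia 2, at 34.3%, lay below the highest level of 50% there. Around Slc1a2 no other site was listed within 50000 bases outside its span.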
